A study of Oryza sativa Indica Group with 12 samples.

Results

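The H3K4me3 loops of 50 kb to 1 Mb are the long loops in the lists of chromatin interactions bound to promoters marked by H3K4me3 in young rice leaves. They were chosen by their span alone, measured between the midpoints of the 2 anchors of a loop, from the H3K4me3 lists of the indica varieties MH63 and ZS97. In all, 1774 of 21993 H3K4me3 loops qualified, 639 of 9714 in MH63 and 1135 of 12279 in ZS97. The lists of all 3 targets, H3K4me3, RNAPII and H3K9me2, held 64726 loops. The study mapped interactions with ChIA-PET, using young leaves of seedlings that were 2 weeks old and had been raised under a common light and temperature cycle. The groups differed only in variety and antibody. There were 2 replicates for each variety and antibody, 12 libraries in all, and 1 joined list of loops per pair of replicates, 6 lists in all. The spread between replicates is thus unknown for every value below, and no p-value is given. Intervals are 95% intervals that cover counting error only, and loops that share an anchor are not independent of each other. Leaves are a mixture of cell types, and a loop present in more cells cannot be told apart from one that forms more often in each cell.

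In ChIA-PET, crosslinked chromatin is enriched with an antibody and neighbouring DNA ends in the same complex are ligated. The sequenced product, a paired-end tag (PET), reports a contact of distant positions. A loop is a pair of anchors joined by several PETs, and the PET count is the number found. H3K4me3 is a mark of the promoters of active genes. RNA polymerase II (RNAPII) is the enzyme that transcribes them, and H3K9me2 marks silent heterochromatin, which in plants is rich in transposable elements. A H3K4me3 loop therefore joins a pair of marked promoters, and the stretch between its ends can hold other active genes, heterochromatin or neither. Positions are given in the genome of each variety and were never compared between the varieties. Neither genes nor sequences of these genomes were used here, so loops are named by their anchors.

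The lists differed in the PETs held by their loops. Such sums follow the number of loops called and do not measure library depth, which bears on each count below. For H3K4me3 the paper reports more uniquely mapped PETs in MH63 than in ZS97, the opposite order to the sums. For RNAPII and H3K9me2 it reports more in ZS97. The PETs within listed loops summed to 55011 in MH63 and 76602 in ZS97 for H3K4me3, to 191725 and 197758 for RNAPII and to 55405 and 95474 for H3K9me2. A listed loop had a PET count of at least 4, except for RNAPII in ZS97, where the lowest was 6. The extent of a chromosome was taken from its start to its last anchor, 359.2 Mb over the 12 chromosomes in MH63 and 346.5 Mb in ZS97. H3K9me2 anchors covered 15.2% of it in MH63 and 14.2% in ZS97. RNAPII anchors covered 7.68% in MH63 and 5.97% in ZS97, and H3K4me3 anchors covered 4.50% in MH63 and 5.79% in ZS97.

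Most long loops lay just above the lower limit. The median span was 66.0 kb in MH63 and 69.2 kb in ZS97, while that of loops under 50 kb was 15.2 kb in MH63 and 15.9 kb in ZS97. In MH63, 526 long loops spanned 50 to 100 kb, 88 spanned 100 to 200 kb and 25 spanned 200 kb to 1 Mb. In ZS97 the same classes held 889, 184 and 62 loops. The limit of 50 kb cut through a falling slope with no gap. There were 145 loops of 50 to 55 kb and 181 of 45 to 50 kb in MH63, and 208 and 288 in ZS97. The 3 MH63 loops just inside it spanned 50.04, 50.10 and 50.10 kb and the 3 just outside it 49.91, 49.92 and 49.95 kb. In ZS97 the 3 just inside spanned 50.01, 50.06 and 50.10 kb. Near 1 Mb the loops were sparse. The 3 longest members spanned 924.7, 976.5 and 979.0 kb in MH63 and 820.2, 821.4 and 969.3 kb in ZS97, and the next loops beyond the limit spanned 1008 kb in MH63 and 1013 kb in ZS97.

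**Figure D1:**
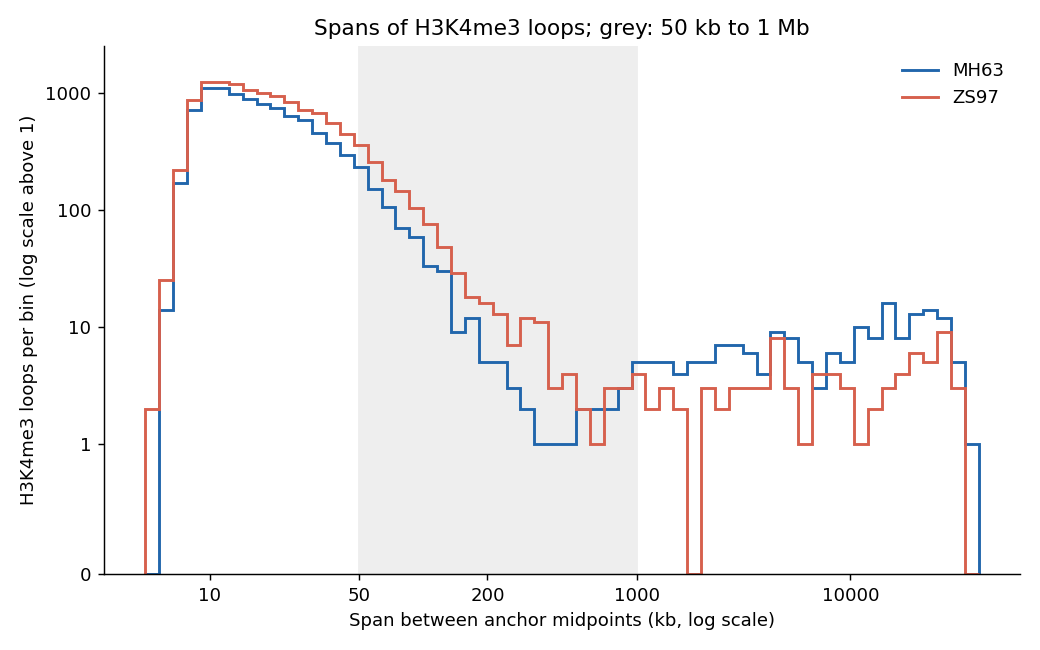
Number of H3K4me3 loops per bin (y axis, log scale above 1) by span between anchor midpoints in kb (x axis, log scale), for MH63 and ZS97. The grey band is the range of 50 kb to 1 Mb, which held 639 MH63 and 1135 ZS97 loops and in which the numbers drop without a gap up to about 200 kb.

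Long loops rested on few PETs. The median PET count was 4 in both varieties, the lowest value listed, and the mean was 4.59 in MH63 and 4.86 in ZS97. A PET count of 4 was found for 440 of the 639 long MH63 loops (68.9%, against 42.7% of all H3K4me3 loops) and for 675 of the 1135 long ZS97 loops (59.5%, against 37.2%). A PET count of at least 6 was found for 11.7% of long loops against 37.96% of loops under 50 kb in MH63, and for 19.0% against 44.4% in ZS97, with 35.6% and 41.8% over all spans. The highest counts were 13 in MH63 and 19 in ZS97. Because the span decides which loops are members and PETs of a list become fewer with distance, these values describe the members and are not a result about them.

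MH63 had fewer long loops than ZS97 on each of the 12 chromosomes. The ratio of MH63 to ZS97 long loops was 0.563 over the whole lists and ran from 0.396 on chromosome 11 to 0.651 on chromosome 3. For all H3K4me3 loops the ratio was 0.791. Long loops made up 6.58% of the MH63 list (6.10 to 7.09%) and 9.24% of the ZS97 list (8.74 to 9.77%), a difference of -2.67 points (-3.37 to -1.95). The share was lower in MH63 on 12 of 12 chromosomes, with differences from -1.38 to -6.46 points. Among loops of 6 or more PETs the long share was 2.17% in MH63 (75 loops) and 4.21% in ZS97 (216 loops). With at least 8 PETs it was 1.48% in MH63 (22 loops) and 2.53% in ZS97 (64 loops). With at least 10 PETs it was 1.82% in MH63 (12 loops) and 1.80% in ZS97 (24 loops), over few loops. The PET sums of the lists are taken over the listed loops and so rise with their number. The paper reports more uniquely mapped H3K4me3 PETs in MH63, the variety with fewer listed loops. The part of library depth in the result was not tested.

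Long loops were most densely placed on chromosome 3, with 3.09 per Mb in MH63 (114 loops) and 5.19 per Mb in ZS97 (175 loops). Chromosome 11 had the lowest density in both varieties, 0.628 per Mb in MH63 (19 loops) and 1.75 per Mb in ZS97 (48 loops). The share of long loops in a chromosome's list did not follow this order. In ZS97 it was highest on chromosome 11, where 48 of 350 loops were long (13.7%, 10.5 to 17.7%), and next on chromosome 12 (12.5%). In MH63 it was highest on chromosome 12, where 28 of 336 loops were long (8.33%, 5.83 to 11.8%), and lowest on chromosome 10 (5.71%). The MH63 intervals of all 12 chromosomes overlapped each other.

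**Figure D2:**
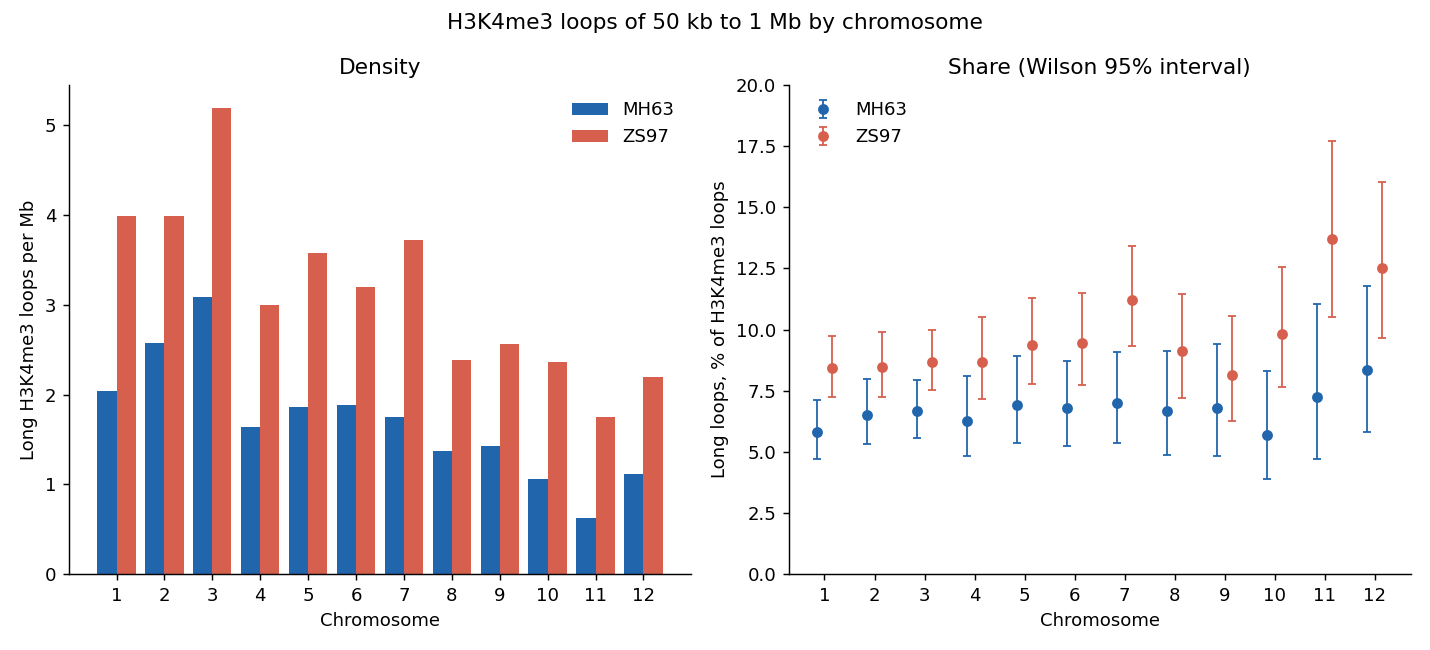
Left, long H3K4me3 loops per Mb (y axis) on chromosomes 1 to 12 in MH63 and ZS97. Right, long loops as a percentage of all H3K4me3 loops of the chromosome, with Wilson 95% intervals. Density was highest on chromosome 3 (3.09 and 5.19 per Mb) and MH63 lay below ZS97 on 12 of 12 chromosomes in both plots.

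The long loops thinned out where H3K9me2 anchors covered more of the chromosome, but less steeply than the shorter ones. In 1 Mb bins with under 5% H3K9me2 cover there were 2.64 long loops per Mb in MH63 and 4.31 in ZS97. In bins with at least 30% cover there were 0.439 in MH63 and 0.898 in ZS97. Long loops were 5.64% of the H3K4me3 loops in the bins with the least cover and 12.1% (9.70 to 15.02%) in those with 15 to 30% cover in MH63. In ZS97 the same shares were 8.13% and 14.4% (12.5 to 16.7%). The bins with at least 30% cover held 25 long loops in MH63 (8.74%) and 44 in ZS97 (14.97%). Long loops were found in 229 of 359 bins in MH63 and in 276 of 346 in ZS97. The fullest bin was at 36 to 37 Mb of chromosome 3 in MH63, with 12 long loops, and at 21 to 22 Mb of chromosome 7 in ZS97, with 24.

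The ends of long loops carried RNAPII anchors more often than those of loops under 50 kb, and their anchors were also wider. RNAPII anchors lay at both ends of 142 of 639 long MH63 loops (22.2%, 19.2 to 25.6%), against 16.0% of loops under 50 kb and 16.7% of all H3K4me3 loops. The difference from the shorter loops was 6.27 points (3.12 to 9.73), and the share was higher on 10 chromosomes and lower on 2. In ZS97 they lay at both ends of 267 of 1135 long loops (23.5%, 21.1 to 26.1%), against 18.7% of loops under 50 kb and 19.1% of all. The difference was 4.81 points (2.33 to 7.47), with 9 chromosomes higher and 3 lower. The excess was thus seen in both varieties, and it was present on most but not all chromosomes. On chromosome 3 the share was 33.3% for long and 20.6% for shorter loops in MH63, and 32.0% and 24.8% in ZS97. On chromosome 8 of ZS97 it ran the other way, at 9.23% for long and 15.1% for shorter loops.

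RNAPII anchors were missing from both ends of 221 long MH63 loops, 34.6% against 44.3% of loops under 50 kb, with 43.4% over all spans. In ZS97 this held for 380 long loops, 33.5% against 44.4%, again with 43.4% over all spans. The differences were -9.76 points (-13.5 to -5.85) in MH63 and -11.0 points (-13.8 to -8.02) in ZS97, with the long share lower on 10 and 11 chromosomes. The remaining 276 long loops of MH63 and 488 of ZS97 had an RNAPII anchor at a single end.

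A wide anchor has more bases to meet an RNAPII anchor, and the median anchor width was 1.74 kb for long and 1.45 kb for shorter loops in MH63, and 1.92 and 1.64 kb in ZS97. Ends of at least 2 kb made up 39.0% of the ends of long and 23.6% of those of shorter loops in MH63, and 46.4% and 31.5% in ZS97. Among ends of 1 to 2 kb, 36.7% of those of long and 33.4% of those of shorter loops carried RNAPII in MH63, and 34.2% and 31.4% in ZS97. Among ends under 1 kb the shares were 18.6% and 16.5% in MH63 and 17.7% and 17.6% in ZS97. Among ends of at least 2 kb they were 58.6% (54.3 to 62.9%) and 53.3% (51.7 to 54.8%) in MH63, and 58.4% (55.4 to 61.4%) and 52.2% (51.0 to 53.4%) in ZS97, where the intervals were apart. When both anchors were from 1 to 2 kb wide, RNAPII lay at both ends of 14.4% of long and 14.9% of shorter MH63 loops, with intervals of 10.1 to 20.1% and 13.8 to 16.2% that overlapped. In ZS97 the same shares were 19.0% (14.97 to 23.9%) and 14.4% (13.4 to 15.5%). When both anchors were at least 2 kb wide they were 36.4% (27.9 to 45.9%) and 32.1% (27.9 to 36.5%) in MH63, and 37.6% (31.8 to 43.7%) and 32.3% (29.4 to 35.3%) in ZS97. The comparison at matched width was chosen after the data were seen.

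RNAPII at both ends of a long loop came with an RNAPII loop between them less often than in shorter loops. An RNAPII loop with an anchor over each end joined 85 long MH63 loops (13.3%, 10.9 to 16.2%), against 13.8% of loops under 50 kb and 13.5% of all. In ZS97 it joined 144 (12.7%, 10.9 to 14.8%), against 14.8% and 14.5%. The differences were -0.45 points (-2.97 to 2.49) in MH63, with 6 chromosomes higher and 6 lower, and -2.07 points (-4.00 to 0.09) in ZS97, with 2 higher and 10 lower. Both intervals included 0. Among loops with RNAPII anchors at both ends, an RNAPII loop joined the same ends of 85 of 142 long loops (59.9%, 51.6 to 67.6%) against 86.2% of shorter ones (84.3 to 87.9%) in MH63. In ZS97 it joined 144 of 267 (53.9%, 47.9 to 59.8%) against 78.9% (77.1 to 80.6%). RNAPII loops over the same ends had a median PET count of 11 for long and 20 for shorter loops in MH63, and 12.5 and 18 in ZS97. These values include RNAPII loops whose own anchors overlap, 465 in the MH63 list and 301 in the ZS97 list. Such a loop can lie over both ends of a short H3K4me3 loop. Without them the difference over all loops was 0.74 points in MH63 and -1.19 in ZS97. The shares among loops with RNAPII at both ends were not recomputed without them. Loops of any target become fewer with distance, so a lower share at greater length cannot be told apart from the length itself.

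H3K9me2 anchors at the ends were rare. They overlapped an end of 33 long MH63 loops (5.16%, 3.70 to 7.16%), against 2.60% of loops under 50 kb and 2.77% of all, and an end of 51 long ZS97 loops (4.49%, 3.43 to 5.86%), against 2.19% and 2.43%. The differences were 2.57 points (1.06 to 4.59) in MH63 and 2.31 points (1.21 to 3.70) in ZS97, each with 10 chromosomes higher and 2 lower. Both ends were overlapped in only 2 MH63 and 5 ZS97 long loops, beside 19 of 8901 and 15 of 11064 loops under 50 kb. Of the ends of long loops that met H3K9me2, 12 of 35 in MH63 and 15 of 56 in ZS97 also met an RNAPII anchor. For loops under 50 kb this held for 44 of 250 such ends in MH63 and 64 of 257 in ZS97, where the share was close to that of long loops. Among ends of 1 to 2 kb, H3K9me2 was found at 3.54% for long and 1.69% for shorter loops in MH63. In ZS97 these shares were 3.73% and 1.37%. Among ends of at least 2 kb they were 1.81% and 0.64% in MH63, but 0.95% and 0.72% in ZS97. Under 1 kb, H3K9me2 met only 2 of 102 ends of long loops in MH63 and 3 of 62 in ZS97. For shorter loops it met 34 of 2428 and 17 of 1288. The difference thus remained at 1 to 2 kb in both varieties, but was small from 2 kb in ZS97. Over all widths the difference was small when at least 50% of the H3K4me3 anchor had to be covered. It was then 0.31 points in MH63 and 0.97 points in ZS97.

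**Figure D3:**
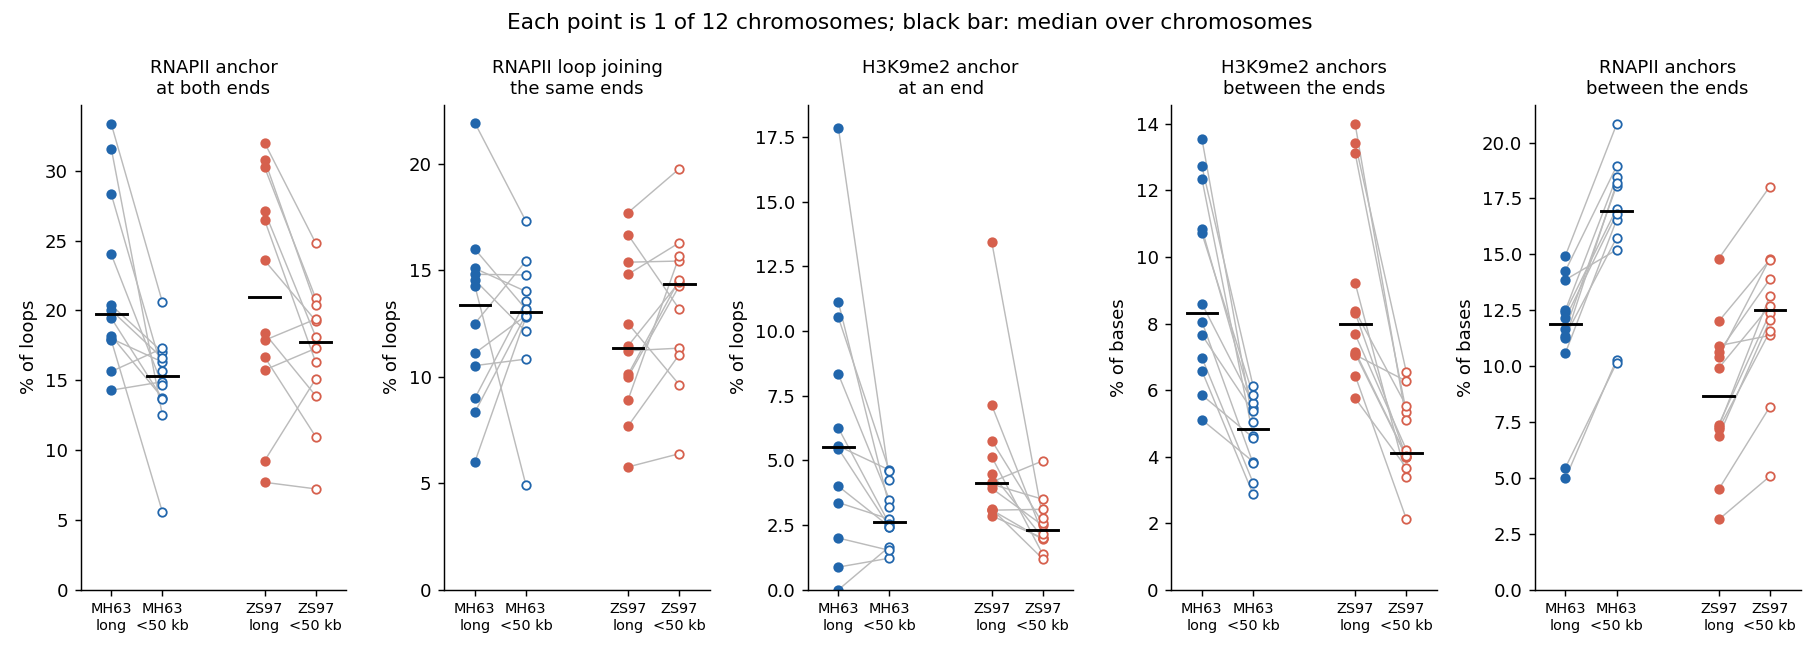
Long loops (filled points) beside loops under 50 kb (open points) for each of the 12 chromosomes of MH63 and ZS97, joined by lines, with the median as a black bar. The y axes give the percentage of loops with RNAPII at both ends, with an RNAPII loop joining the same ends and with H3K9me2 at an end, and the percentage of bases between the ends covered by H3K9me2 and by RNAPII anchors. Cover by H3K9me2 was higher and cover by RNAPII lower for long loops on 12 of 12 chromosomes in both varieties.

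Between their ends the long loops passed over more H3K9me2 and less RNAPII per base than the shorter loops, in both varieties and on each chromosome. At least 1 H3K9me2 anchor lay wholly between the ends of 170 long MH63 loops (26.6%, 23.3 to 30.2%), against 4.15% of loops under 50 kb and 7.32% of all. In ZS97 this held for 346 long loops (30.5%, 27.9 to 33.2%), against 4.53% and 7.53%. A longer stretch holds more anchors by its length alone, so the share of bases is the fairer measure. H3K9me2 anchors covered 8.58% of the bases between the ends of long loops and 4.40% for shorter loops in MH63, and 8.39% and 4.16% in ZS97. By chromosome the cover ran from 5.11 to 13.5% for long and from 2.88 to 6.13% for shorter loops in MH63, and from 5.75 to 14.0% and 2.13 to 6.55% in ZS97. The ranges overlapped slightly, and each chromosome was higher for its long loops. Over all chromosomes together these values lay below the cover of the whole chromosomes, 15.2% in MH63 and 14.2% in ZS97. Chromosome 1 of MH63 was an exception, with 12.3% between the ends of its long loops and 10.5% over the whole chromosome. H3K9me2 lay in a minority of the long loops. It covered no base at all between the ends of 467 long MH63 loops (73.1%) and 781 long ZS97 loops (68.8%). The share of loops with a whole H3K9me2 anchor between the ends, given above, was lower still under 50 kb and over all spans.

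RNAPII anchors covered 12.1% of the bases between the ends of long loops and 17.5% for shorter loops in MH63, and 9.63% and 13.4% in ZS97, lower for long loops on 12 of 12 chromosomes in each. Over single loops the median cover differed by only -0.73 points in MH63 and was 0.62 points higher for long loops in ZS97. At equal distance from the nearer end the RNAPII difference was smaller, and its sign varied. In the first 5 kb RNAPII covered 23.48% inside long and 22.75% inside shorter MH63 loops, and 19.12% and 18.91% in ZS97. At 5 to 10 kb cover was lower for long loops, at 14.04% against 15.79% in MH63 and 11.14% against 13.74% in ZS97. It stayed lower at 10 to 20 kb. At 20 to 25 kb it was 11.16% for long and 11.03% for shorter MH63 loops, and 8.23% and 8.06% in ZS97. Other H3K4me3 anchors stood at 4.78 per 100 kb between the ends of long loops and 5.39 for shorter ones in MH63, and at 4.97 and 5.75 in ZS97. The long value was lower on 9 MH63 and 11 ZS97 chromosomes. Over the whole chromosomes there were 3.02 H3K4me3 anchors per 100 kb in MH63 and 3.45 in ZS97, so the stretches within long loops were richer in H3K4me3 anchors than the genome at large. That comparison uses the list from which the loops were chosen and is a description.

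The H3K9me2 difference between long and shorter loops was smaller at equal distance from the ends than over the whole stretches, and far from the ends it ran the other way. H3K9me2 cover was lowest beside the anchors and grew with distance from them. It was 3.04% in the first 5 kb inside long MH63 loops and 9.58% at 20 to 25 kb, and 4.17% and 9.47% in ZS97. In the first 5 kb it was 3.04% for long and 2.05% for shorter loops in MH63, and 4.17% and 1.84% in ZS97. At 5 to 10 kb, which 6256 of the shorter MH63 and 7888 of the shorter ZS97 loops reached, it was 5.83% for long and 4.39% for shorter loops in MH63, and 7.21% and 4.59% in ZS97. Near the ends the long loops thus had more H3K9me2 in both varieties, with the wider gap in ZS97. At 10 to 15 kb from the nearer end it was 7.51% for long and 6.79% for shorter loops in MH63, and 8.20% and 6.52% in ZS97. At 15 to 20 kb it was 7.998% for long and 8.47% for shorter loops in MH63, and 9.01% and 8.62% in ZS97. At 20 to 25 kb, which 326 of the shorter MH63 and 487 of the shorter ZS97 loops reached, it was lower for long loops, at 9.58% against 12.9% in MH63 and 9.47% against 10.2% in ZS97. The whole stretches differed by 4.18 points in MH63 and 4.23 points in ZS97.

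The inside of a long loop held more H3K9me2 than the flanks at the same distance. At 10 to 25 kb from the ends of long loops the cover was 8.36% inside and 6.16% outside in MH63, with the inside higher on 9 of 12 chromosomes. In ZS97 it was 8.89% inside and 5.53% outside, higher on 12 of 12. For shorter loops the cover was 7.53% inside and 4.48% outside in MH63, and 7.29% and 4.41% in ZS97. Their inside values come only from the 2573 MH63 and 3480 ZS97 loops that reach this distance. Their outside values come from all loops under 50 kb, so the 2 sides are not matched. A higher value inside was thus not seen for long loops alone, but its size in shorter loops cannot be read from these values. RNAPII ran the other way. At 10 to 25 kb it covered 11.7% inside and 12.8% outside long loops in MH63, with the inside lower on 8 chromosomes, and 8.96% and 10.9% in ZS97, lower on 11. At the anchors themselves RNAPII covered 40.9% of the bases of long and 32.6% of those of shorter loops in MH63, and 43.3% and 33.7% in ZS97, while H3K9me2 covered under 1% in each group.

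**Figure D4:**
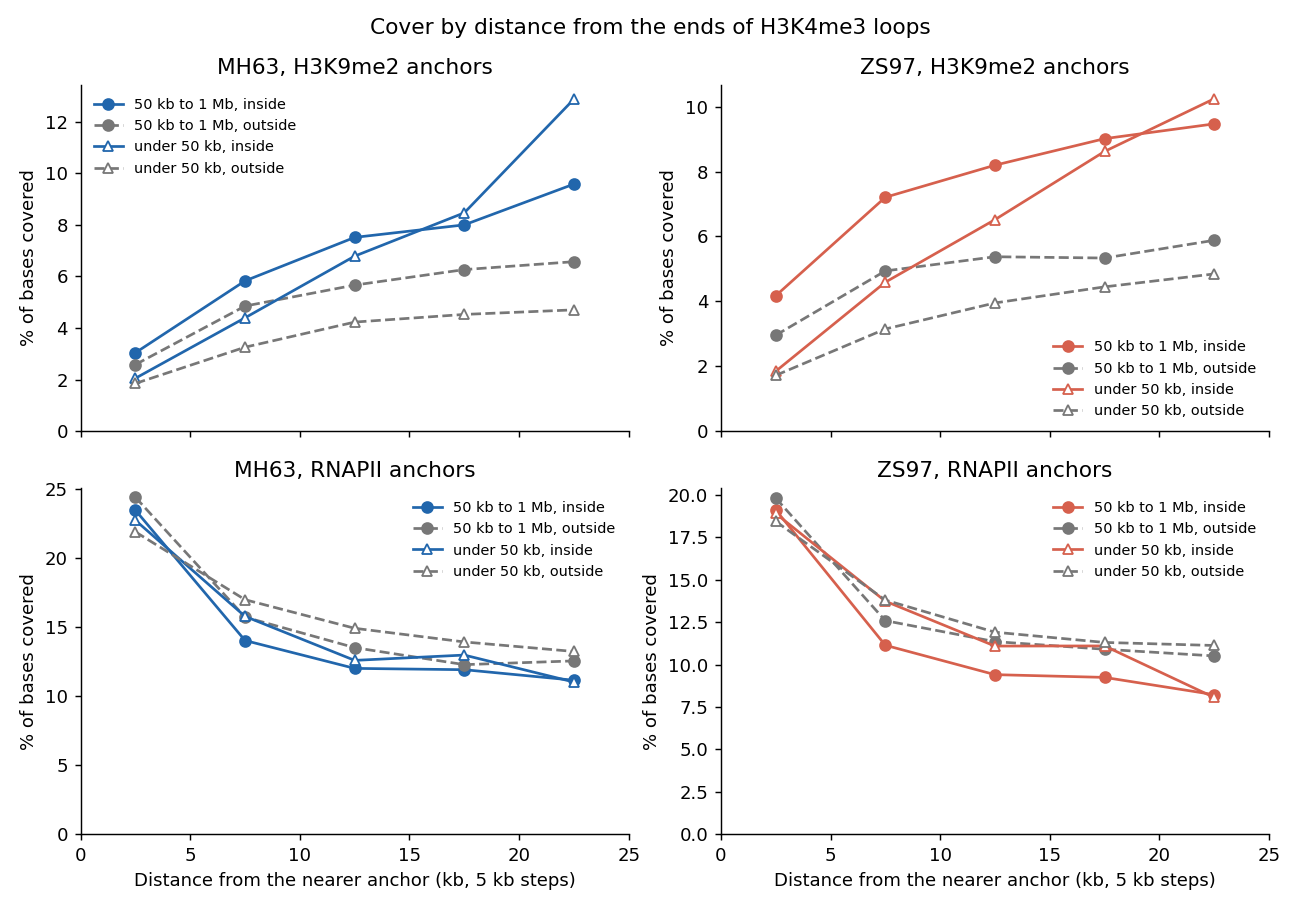
Percentage of bases covered by H3K9me2 anchors (top) and RNAPII anchors (bottom) by distance in kb from the nearer anchor, in steps of 5 kb, for MH63 (left) and ZS97 (right). Solid lines run inside the loop and dashed lines outside it, with filled circles for loops of 50 kb to 1 Mb and open triangles for loops under 50 kb. Inside, the triangles cover only the loops under 50 kb that reach that distance, and outside they cover all of them. For long loops H3K9me2 reached 9.58% in MH63 and 9.47% in ZS97 at 20 to 25 kb inside, above the 6.57% and 5.88% outside.

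The stretches under long loops fell into unlike kinds when they were sorted by the H3K4me3 anchors they passed over. No other H3K4me3 anchor lay between the ends of 88 long MH63 loops (13.8%, against 43% of all H3K4me3 loops) and 124 long ZS97 loops (10.9%, against 38.8%). These had a median span of 66.5 kb in MH63 and 61.4 kb in ZS97, and H3K9me2 covered 17.5% and 22.8% of the bases they enclosed, with RNAPII at 3.87% and 2.39%. RNAPII was found at neither end of 53.4% of them in MH63 (47 loops) and of 62 of the 124 in ZS97. At the other extreme, 219 MH63 and 420 ZS97 long loops passed over 5 or more H3K4me3 anchors. There H3K9me2 covered 4.15% in MH63 and 4.83% in ZS97, RNAPII covered 15.7% and 13.1%, and RNAPII was at neither end of 27.9% and 24.05%. The 332 MH63 and 591 ZS97 loops with 1 to 4 anchors between their ends lay in the middle, with H3K9me2 at 11.1% and 10.4%. Anchors of H3K4me3 and H3K9me2 mostly take up different bases, so this contrast cannot be told apart from how the loops were sorted. A small group of 41 MH63 and 54 ZS97 long loops (6.42% and 4.76%) had no anchor of any target wholly between their ends. H3K9me2 covered at least 50% of the enclosed bases of 29 MH63 and 42 ZS97 long loops (4.54% and 3.70%). The shares of these groups over all H3K4me3 loops were not computed, so they only describe the long loops.

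Strong long loops enclosed more H3K9me2 than weak ones. In MH63, H3K9me2 covered 7.72% of the bases within the 440 long loops with a PET count of 4, 8.75% within the 124 with 5, and 15.6% within the 63 with 6 to 9. In ZS97 the values were 7.30% for 675 loops, 10.4% for 244 and 12.6% for 192. No such order was seen in loops under 50 kb, with 4.19, 3.18 and 4.33% in MH63 and 3.87, 3.71 and 3.83% in ZS97. The share of long loops with at least 1 H3K9me2 anchor between the ends was 24.5% (20.8 to 28.8%), 29.0% (21.8 to 37.6%) and 28.6% (18.9 to 40.7%) in MH63 for the same PET classes. In ZS97 it was 29.0% (25.7 to 32.6%), 33.6% (28.0 to 39.7%) and 31.8% (25.6 to 38.7%). These intervals overlapped. Among the few loops of at least 10 PETs, 8 of 12 held such an anchor in MH63 (66.7%, 39.1 to 86.2%), above the interval for a PET count of 4, and 7 of 24 in ZS97 (29.2%, 14.9 to 49.2%). H3K9me2 covered 22.4% of the bases within these loops in MH63 and 14.5% in ZS97. In MH63, RNAPII lay at both ends of 18.0% of the long loops with a PET count of 4 and 32.0% of those with at least 6. In ZS97 these shares were 21.8% and 26.9%. By class they did not rise steadily in MH63, with 31.5% at a PET count of 5 and 27.0% at 6 to 9. The ZS97 values were 25.4% and 26.0%. Loops under 50 kb also had a higher share with at least 6 PETs than with 4. It went from 12.5% to 20.6% in MH63 and from 14.4% to 22.9% in ZS97, so this is not confined to long loops.

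The strongest long loops of the chromosomes were of several kinds. A PET count of 13 was the highest in MH63 and was shared by 3 loops. On chromosome 11, the anchors 20573126-20574680 and 20634779-20636906 were 61.9 kb apart, with RNAPII at both ends, an RNAPII loop of 8 PETs between them and no other H3K4me3 anchor within. On chromosome 2, the anchors 6908165-6910735 and 6961802-6965406 were joined over 54.2 kb, with RNAPII at both ends and no H3K9me2 within. On chromosome 6, the anchors 9165893-9168294 and 9217360-9219845 enclosed 2 H3K9me2 anchors that covered 43.1% of the stretch, and an RNAPII loop of 22 PETs joined the same ends. Of the 12 strongest MH63 loops, 1 a chromosome, 7 had RNAPII at both ends and 6 had at least 1 H3K9me2 anchor between the ends. Over all MH63 H3K4me3 loops these shares were 16.7% and 7.32%, and over the long ones 22.2% and 26.6%. Among the strongest ZS97 loops, RNAPII lay at both ends only on chromosomes 1, 2, 7 and 11. A H3K9me2 anchor lay between the ends on chromosomes 1, 3, 5, 7 and 10.

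In ZS97 the highest PET count was 19, on chromosome 5, between the anchors 6321978-6323336 and 6461868-6463052. This loop spanned 139.8 kb, had RNAPII at neither end, passed over 4 H3K4me3 anchors and enclosed 43.3 kb of H3K9me2 (31.2%). The next, with a PET count of 18 on chromosome 4, joined 22665033-22666198 with 22715070-22716975 over 50.4 kb, and no RNAPII or H3K9me2 base was listed between its ends. On chromosome 1, the anchors 12089087-12092767 and 12142192-12145453 shared 16 PETs, and an RNAPII loop of 36 PETs lay over the same ends. H3K9me2 covered 17.0% of the stretch of the chromosome 1 loop. Of these 3 loops, the one on chromosome 1 alone had RNAPII at both ends, while the one on chromosome 5 had a single RNAPII anchor between its ends, which covered 1.68% of the stretch.

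Some long loops joined RNAPII-bound ends across stretches mostly covered by H3K9me2. Among those with RNAPII at both ends and 6 or more PETs, the highest H3K9me2 cover in MH63 was 57.4%, on chromosome 7. There the anchors 17099530-17101468 and 17166189-17167440 were joined over 66.3 kb by 11 PETs, and enclosed 2 H3K9me2 anchors with a H3K9me2 loop of 19 PETs between them. In ZS97 it was 89.5%, on chromosome 1. There the anchors 16938124-16939209 and 17018110-17019672 were joined over 80.2 kb by 7 PETs, and an RNAPII loop of 36 PETs joined the same ends over 3 H3K9me2 anchors. Chosen after its values were seen, a ZS97 loop on chromosome 4 between 23455481-23457276 and 23526030-23527463 had H3K9me2 cover over 100% of the bases between its ends, H3K9me2 anchors overlapped both ends, and an RNAPII loop of 49 PETs joined its ends.

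**Figure D5:**
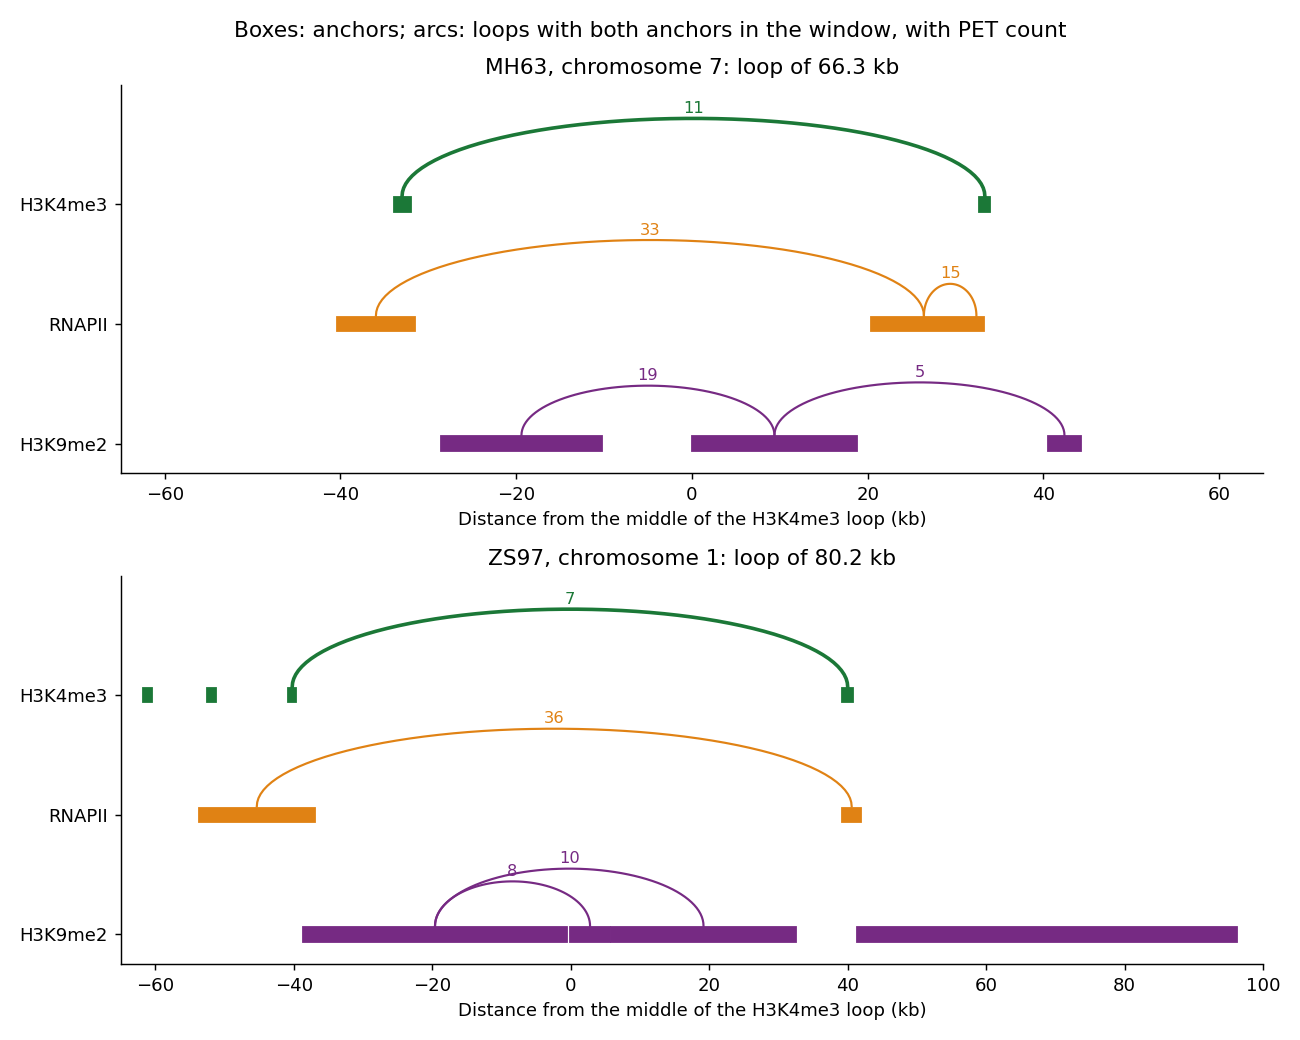
Anchors (boxes) and loops (arcs with their PET counts) of H3K4me3, RNAPII and H3K9me2 around a long loop of MH63 (66.3 kb, chromosome 7) and of ZS97 (80.2 kb, chromosome 1), by distance in kb from the middle of the H3K4me3 loop. Loops that join an anchor to itself and loops with an anchor outside the window are not drawn. H3K9me2 anchors covered 57.4% and 89.5% of the bases between the H3K4me3 anchors.

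The RNAPII loop with the highest PET count over the ends of a long loop did not lie at the strongest H3K4me3 loop in either variety. In MH63 it had 133 PETs and lay on chromosome 5, where H3K4me3 joined 1482504-1485602 with 1536516-1538426 with a PET count of 4 over 53.4 kb, across 5 other H3K4me3 anchors and no H3K9me2. In ZS97 it had 196 PETs and lay on chromosome 11, where H3K4me3 joined 11374615-11376527 with 11450853-11452616 with a PET count of 8 over 76.2 kb, with 22.3 kb of H3K9me2 in the stretch. The longest members had PET counts of 4. The MH63 one spanned 979.0 kb on chromosome 7, from 21231572-21233616 to 22208745-22214471, with RNAPII at both ends, no RNAPII loop over them and 60 other H3K4me3 anchors between. The ZS97 one spanned 969.3 kb on chromosome 9, from 17275786-17277287 to 18244755-18246821, and passed over 77.

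Most anchors of long loops had 1 long partner and also took part in shorter loops. The long loops used 1135 of 10855 H3K4me3 anchors in MH63 and 1873 of 11960 in ZS97, of which 1013 (89.3%) and 1566 (83.6%) had a single long partner. A loop under 50 kb also started from 69.4% of them in MH63 (66.7 to 72.0%) and 77.3% in ZS97 (75.4 to 79.1%). The ends of 128 long MH63 loops (20.03%) and 293 long ZS97 loops (25.8%) were also connected step by step through shorter loops. RNAPII anchors overlapped 41.7% of the anchors with a long loop (38.8 to 44.6%) and 29.8% of those with shorter loops only (28.9 to 30.7%) in MH63, and 42.4% (40.2 to 44.6%) and 27.8% (26.9 to 28.7%) in ZS97. The anchors with a long loop were also wider, with a median of 1.70 kb against 1.31 kb in MH63 and 1.84 kb against 1.48 kb in ZS97. Among anchors of 1 to 2 kb the RNAPII shares were 35.5% (31.9 to 39.4%) with a long loop and 30.003% (28.9 to 31.1%) with shorter loops only in MH63, and 32.4% (29.6 to 35.3%) and 25.6% (24.6 to 26.7%) in ZS97. Among those of at least 2 kb they were 56.97% (52.1 to 61.7%) and 46.9% (44.3 to 49.5%) in MH63, and 57.4% (53.9 to 60.8%) and 40.6% (38.5 to 42.7%) in ZS97, so at these widths the intervals were apart. Under 1 kb the intervals overlapped in both varieties, at 19% and 16.1% in MH63 and 16.7% and 16.8% in ZS97.

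The anchor with the most long partners had 6 in MH63 and 9 in ZS97. The MH63 anchor, on chromosome 6 at 28064056-28067367, reached 6 partners at 51.3 to 79.3 kb, all on its left, with PET counts of 4 to 12. It carried RNAPII, none of its long loops had RNAPII at both ends, and each of the 6 enclosed a H3K9me2 anchor. The ZS97 anchor, on chromosome 7 at 21294189-21300575, reached 9 partners at 52.4 to 126.9 kb, 8 of them on its right, with PET counts of 4 to 8. RNAPII lay at both ends of 6 of its long loops and an RNAPII loop joined the same ends in 5, while each of the 9 enclosed a H3K9me2 anchor. It lay in the fullest 1 Mb bin of ZS97. The 9 loops share this anchor and the 8 on its right overlap each other, so they are not independent of each other.

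Long loops and H3K9me2 loops lay within each other in both directions. A whole H3K9me2 loop lay between the ends of 90 long MH63 loops (14.1%) and 173 long ZS97 loops (15.2%), against 0.618% and 0.723% of loops under 50 kb, whose stretches are shorter. In turn, 78 long MH63 loops (12.2%) and 172 long ZS97 loops (15.2%) lay inside a H3K9me2 loop of up to 1 Mb, against 8.92% and 12.1% of loops under 50 kb.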

How the data were processed

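Leaves of 2-week-old seedlings of MH63 and ZS97 were profiled by ChIA-PET for H3K4me3, RNAPII and H3K9me2, with 2 replicates each. The authors filtered linkers, mapped tags to the variety's own genome from RIGW, removed redundant PETs, joined replicates and called loops between extended peaks with an updated ChIA-PET Tool (version not given in the sources used here), keeping those with an FDR under 0.05 and enough PETs. The PET counts of the deposited lists are whole numbers of inter-ligation PETs over both replicates, not scaled to depth. The FDR, an adjusted p-value from the authors' program, was used only to check the lists, and the column beside it was not used. The lists carry no header, and starts were shifted by 1 to be 1-based. No column of per-sample values was left unused.

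The members and lists were chosen with earlier results of these data known. Span was measured from midpoint to midpoint of the anchors. Overlapping intervals within a list were merged into 1 anchor. An anchor lay at an end if it overlapped the H3K4me3 anchor by at least 1 bp. Shares of bases were taken over the union of the stretches between the inner ends of the anchors, except in the distance profile and in the groups sorted by anchors passed, where each loop counted in full. Shares carry Wilson and differences Newcombe 95% intervals. Library totals are not in the lists, so the intervals cover counting error only. No test was made, because each combination has 1 joined list.

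Named were the loop with the highest PET count on each chromosome (ties by longer span), the longest, the anchor with the most long partners, the loop with the strongest RNAPII loop over its ends, the loop with the highest H3K9me2 share among those with a PET count of at least 6 and RNAPII at both ends, and the 3 loops beside each limit. The alternatives were other minimum PET counts, definitions of span, span limits, overlaps and RNAPII or H3K9me2 loop sets, medians over single loops and, added after seeing the data, matched anchor widths, matched distances and loops of 15 to 50 kb as the comparison. Python 3.11.15 with numpy 2.4.6, pandas 2.3.3 and matplotlib 3.10.9 was used, and the overlap and cover functions were tested on simulated data.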

Additional observations from a re-analysis of the deposited data

How the results depend on the processing

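Each difference is long loops minus loops under 50 kb, in points, or in anchors per 100 kb for H3K4me3 anchors. Of 200 values under other settings, 186 kept the sign of the reported one. These include the numbers of long loops, which are positive and cannot change sign. Of the 200, 126 stayed close to the reported value. For shares this meant within its interval, and for bases and anchors within 1 SD over chromosomes. For numbers of long loops it meant within a ratio of 1.5. The cause of the others was not tested. Shifting the span to the inner or outer ends, the range of 50 to 200 kb and RNAPII loops without overlapping anchors moved none of them out of these ranges. The sign could still change where the interval included 0. For an RNAPII loop over the same ends in MH63, the difference of -0.449 became 0.742 without overlapping RNAPII anchors. With at least 50% of the anchor covered it became 2.01.

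The number of long loops was 199 in MH63 and 460 in ZS97 with at least 5 PETs, 75 and 216 with at least 6, 12 and 24 with at least 10, and 113 and 246 for loops of 100 kb to 1 Mb. RNAPII at both ends gave 13.4, 11.4 and 30.9 in MH63 with at least 5, 6 and 10 PETs, and 0.20 in ZS97 with at least 10. From 100 kb it gave 12.4 in MH63 and 8.93 in ZS97, within 2 kb 1.12 in ZS97, and with both anchors 1 to 2 kb wide it turned to -0.58 in MH63. RNAPII at neither end gave -5.58 with at least 6 PETs and turned to 0.0925 with at least 10 in ZS97, with 7 of 24 long loops. It gave -7.36 within 2 kb and -7.24 beside loops of 15 to 50 kb in ZS97, and -2.00 in MH63 and -0.75 in ZS97 at matched width.

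H3K9me2 at an end gave 8.12 in MH63 and 1.10 in ZS97 with at least 6 PETs, 6.17 and 6.34 with at least 10, and 6.25 in MH63 from 100 kb. It gave 0.31 in MH63 and 0.97 in ZS97 with at least 50% of the anchor covered, and 4.69 in ZS97 within 2 kb. With both anchors 1 to 2 kb wide it gave 7.83 in MH63 and 5.83 in ZS97. An RNAPII loop over the same ends gave 3.60, 6.69 and 24.7 in MH63 with at least 5, 6 and 10 PETs, and 0.27 and -8.85 in ZS97 with at least 6 and 10. It gave -4.02 in MH63 and -6.63 in ZS97 from 100 kb, -5.77 and -7.86 within 2 kb, 0.49 in ZS97 with 50% covered, and -5.60 and 0.29 at matched width. A H3K9me2 anchor between the ends gave 27.3, 30.4 and 63.4 in MH63 with at least 5, 6 and 10 PETs. It gave 39.2 in MH63 and 45.1 in ZS97 from 100 kb, 14.5 and 16.7 with H3K9me2 loops of at least 6 PETs, and 23.1 in ZS97 beside loops of 15 to 50 kb.

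H3K9me2 bases gave 7, 11.9 and 19.4 in MH63 and 7.54, 9.67 and 10.8 in ZS97 with at least 5, 6 and 10 PETs. The median over single loops differed by 0 in both varieties, and at 10 to 15 kb from the nearer end the differences were 0.73 and 1.68. RNAPII bases gave -7.20, -8.65 and -18.4 in MH63 with at least 5, 6 and 10 PETs, -7.64 and -13.2 in ZS97 with at least 6 and 10, and -7.25 in MH63 from 100 kb. By the median over single loops they gave -0.73 in MH63 and turned to 0.62 in ZS97, and at 10 to 15 kb -0.58 and -1.68. H3K4me3 anchors gave 0.32 in MH63 and -0.25 in ZS97 by the median over single loops. No paired analysis was possible because each list holds both replicates together and no result comes from a test. With 12 and 24 loops of at least 10 PETs, small differences were not detectable at this depth.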

Other observations

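Beyond the upper limit the order of the varieties turned round. MH63 had 174 H3K4me3 loops over 1 Mb (1.79% of its list) and ZS97 had 80 (0.652%), although MH63 had fewer loops of 50 kb to 1 Mb and fewer loops in all. A PET count of 4 was found for 87.9% of the loops over 1 Mb in MH63 and for 73.8% in ZS97. RNAPII anchors lay at both ends of 62 of the 174 in MH63 (35.6%) and of 9 of the 80 in ZS97, and an RNAPII loop joined the same ends of 3 and 2. These values come from 1 joined list per variety, and the difference was not tested.

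The longest H3K4me3 loops whose ends were also joined by an RNAPII loop, chosen after their values were seen, spanned 395.5 kb on chromosome 3 of MH63 and 295.1 kb on chromosome 4 of ZS97. The MH63 loop, between 8695775-8698080 and 9090021-9094889, passed over 22 H3K4me3, 19 RNAPII and 7 H3K9me2 anchors. The ZS97 loop, between 8211312-8213291 and 8506627-8508242, passed over no other H3K4me3 anchor and enclosed 195.7 kb of H3K9me2 (66.7% of the stretch). Both had a PET count of 4, and the RNAPII loops had 4 and 7 PETs.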
